A study of Homo sapiens with 12 samples.

Results

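The 10 genes described here encode enzymes, and in ALOX5AP an enzyme's partner, for turning arachidonic acid into leukotrienes, prostaglandins, thromboxane and 12-lipoxygenase products: ALOX5, ALOX5AP, ALOX12, LTA4H, LTC4S, PTGS1, PTGS2, TBXAS1, HPGDS and PTGES. They were taken from the 36601 genes of the deposited count table by symbol, and all 10 were matched and passed the filter on low counts. Bulk RNA sequencing covered 12 libraries from H9, an established human embryonic stem cell line of wild-type genotype, all cytokine-induced and all from the same batch in the labels, with 3 libraries at each of days 10, 15, 20 and 25 of a differentiation aimed at γδ T cells. Day 10 is labelled as hematopoietic progenitors, days 15 and 20 as T progenitors and day 25 as mature γδ T cells. Before day 10 every culture had passed through CHIR99021, BMP4, Activin A and a Rock inhibitor, then VEGF and bFGF, then those with Flt3L, IL-7, SCF and SB431542. From day 10 the cells were held in MEM-α with FBS, MAP, DLL4 (a ligand of Notch receptors), Flt3L, IL-7 and SCF. The stem cells had been kept on mouse embryonic feeder cells, the labels mention no sorting of cells, and they do not say whether the libraries of a day came from separate cultures, so the p-values reflect library-to-library spread alone, part or all of which may be technical.

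Eicosanoids are short-lived signalling lipids made from arachidonic acid that phospholipases release from membranes. Cyclooxygenases (PTGS1 and PTGS2) turn it into a prostaglandin precursor, from which separate terminal synthases make thromboxane (TBXAS1), prostaglandin D2 (HPGDS) or prostaglandin E2 (PTGES). 5-lipoxygenase (ALOX5), helped by its membrane partner FLAP (ALOX5AP), makes the unstable leukotriene A4, which LTA4H turns into the neutrophil attractant leukotriene B4 and LTC4S into the cysteinyl leukotrienes. Platelets are known for thromboxane and for products of 12-lipoxygenase (ALOX12), mast cells for prostaglandin D2 and cysteinyl leukotrienes, and neutrophils and macrophages for leukotriene B4.

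Levels are CPM, the usual depth-normalised counts, after scaling by edgeR's TMM factors. They are given as mean ± SD of 3 libraries a day or as the value of each library, and the libraries held between 27026196 and 39811230 counts. Folds come from edgeR's quasi-likelihood fit to all 12 libraries, and a gene is called at a Benjamini-Hochberg adjusted p under 0.05 over the 20183 genes tested. T-cell genes were scarce at the days labelled as T-lineage. The 12 T-cell markers summed to between 3.18 and 4.09 CPM on day 10, 28.5 and 31.6 on day 15, 40.1 and 44.7 on day 20, and 16.2 and 18.9 on day 25. At day 25, 10 of the 12 were under 1 CPM, and CD3D and CD3G had 0 counts. The exceptions were the γ-chain constant genes TRGC1 (10.0 CPM) and TRGC2 (4.90 CPM), both higher at day 20 (24.8 and 13.9 CPM). CD5 (0.822 CPM) and BCL11B (0.940 CPM) were highest on day 25.

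The genes followed different courses. ALOX12, PTGS1 and TBXAS1 were highest at day 15 and fell steeply by day 20. ALOX5, LTA4H, PTGS2 and HPGDS were highest at day 25, and ALOX5AP, LTC4S and PTGES at day 20, by day means. Each of the 10 differed among the 4 days by the joint F test, with adjusted p from 2.7e-53 for PTGS1 to 5.8e-11 for PTGES, as did 90.5% of all genes tested. In a bulk sample, fewer cells of a type and less RNA per cell cannot be told apart.

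At day 15 against day 10, 9 of the 10 genes were higher and 1 was lower, where 42.4% of all genes tested were called higher and 30.8% lower. At day 20 against day 15, 7 were higher and 3 lower, against 40.6% and 36% of all genes. At day 25 against day 20, 5 were higher, 4 lower and 1 was not called, against 24.5% and 25.1%. Over the whole course, day 25 against day 10, 7 were higher and 3 lower, against 38.6% and 36%. The median log2 fold change of the 10 genes was 1.73, 0.98, 0.27 and 2.77 in these comparisons, beside 0.20, 0.10, -0.03 and 0.02 over all genes tested. Day 25 was called different from day 15 in 9 of the 10 genes, 6 higher and 3 lower, against 40.2% and 37.8% of all genes. The libraries of both days did not overlap for 10 of 10 genes at day 15 against day 10 (74.3% of all genes), 10 at day 20 against day 15 (78.3%), 9 at day 25 against day 20 (57%), 10 at day 25 against day 10 (77.3%) and 9 at day 25 against day 15 (79.1%).

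**Figure D1:**
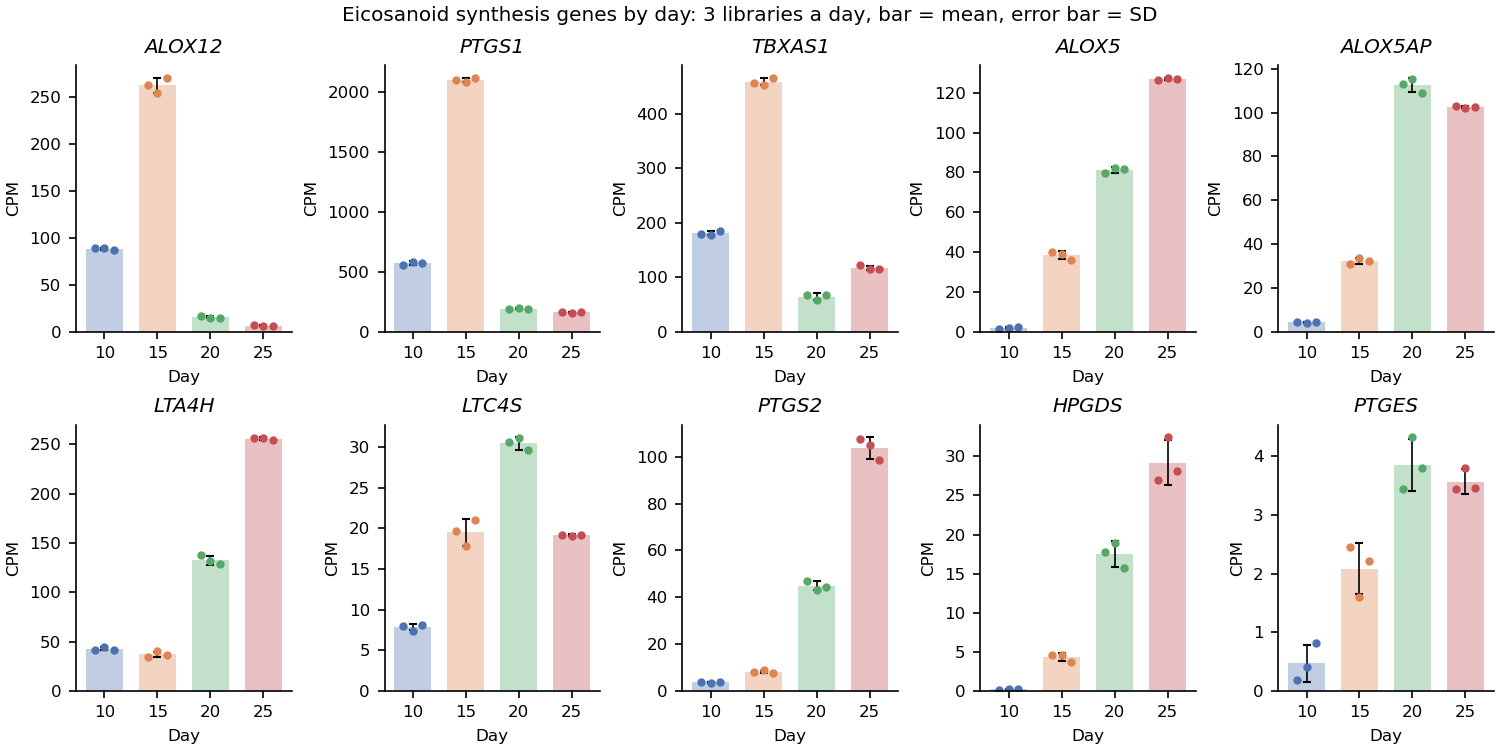
CPM of each gene (vertical axes from 0, scaled per gene) by day (horizontal axes); points are libraries, bars are means and error bars SD of 3 libraries. ALOX12, PTGS1 and TBXAS1 stand highest at day 15, and the other genes at day 20 or 25.

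The stretches before the RefSeq start sites are shown for the 6 genes that held marked letters of GATA factors, PU.1 or a TATA box. Factors of the blood lineages are known to act at GATA and PU.1 sites. The 6 genes were chosen by the marked letters and not by their course, and those highest at day 15 come first. RefSeq's table (GRCh38.p14) held an entry for 9 of the 10 genes, all but ALOX5, with 2 starts for PTGS1. Up to 250 bases before the start are printed 5′ to 3′ on the gene's strand, without bases that GENCODE 29 places in an exon of the gene. Capitals mark the GATA-factor letters AGATAA or TGATAA and the PU.1-type letters GAGGAAGT, each on both strands, and the TATA-box letters TATAAA on the gene's strand.
ALOX12 (chr17:6995799-6996048, plus strand): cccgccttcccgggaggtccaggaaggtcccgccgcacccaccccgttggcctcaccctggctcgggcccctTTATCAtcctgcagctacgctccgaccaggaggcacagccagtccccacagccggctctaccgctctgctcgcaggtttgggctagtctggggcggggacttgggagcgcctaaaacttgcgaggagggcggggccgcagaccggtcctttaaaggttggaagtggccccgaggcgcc
PTGS1 (chr9:122370283-122370532, plus strand): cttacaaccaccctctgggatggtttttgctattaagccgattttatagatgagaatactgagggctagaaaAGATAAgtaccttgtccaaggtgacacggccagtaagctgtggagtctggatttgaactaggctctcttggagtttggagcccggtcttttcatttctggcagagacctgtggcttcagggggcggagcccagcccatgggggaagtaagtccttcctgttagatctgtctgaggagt
TBXAS1 (chr7:139829014-139829223, plus strand): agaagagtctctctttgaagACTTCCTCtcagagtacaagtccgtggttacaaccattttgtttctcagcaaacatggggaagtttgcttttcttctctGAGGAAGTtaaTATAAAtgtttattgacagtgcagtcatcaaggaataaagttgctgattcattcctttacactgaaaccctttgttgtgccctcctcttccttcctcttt
ALOX5AP (chr13:30713235-30713477, plus strand): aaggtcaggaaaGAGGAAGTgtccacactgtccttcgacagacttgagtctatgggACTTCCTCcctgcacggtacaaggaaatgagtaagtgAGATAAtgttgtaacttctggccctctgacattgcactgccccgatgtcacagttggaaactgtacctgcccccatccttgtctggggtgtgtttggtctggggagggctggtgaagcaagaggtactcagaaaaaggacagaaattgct
HPGDS (chr4:94342877-94343086, minus strand): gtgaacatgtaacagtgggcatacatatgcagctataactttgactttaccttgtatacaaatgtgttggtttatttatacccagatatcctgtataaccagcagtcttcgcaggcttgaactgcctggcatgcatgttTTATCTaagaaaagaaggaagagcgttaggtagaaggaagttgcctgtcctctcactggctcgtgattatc
PTGS2 (chr1:186680428-186680673, minus strand): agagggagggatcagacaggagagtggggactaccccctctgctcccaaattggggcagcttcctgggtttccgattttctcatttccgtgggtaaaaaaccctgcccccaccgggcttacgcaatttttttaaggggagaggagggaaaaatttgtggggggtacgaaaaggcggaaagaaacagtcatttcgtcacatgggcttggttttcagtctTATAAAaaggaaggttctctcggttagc
GATA letters occurred before the starts of ALOX12 and PTGS1, 178 bases upstream in each, and also in ALOX5AP (157 bases) and HPGDS (111 and 45 bases, the latter running past the end of the printed part and left unmarked). They are present in 14.6% of the 35116 promoter entries over the same 250 bases. The PU.1-type letters occurred in pairs in ALOX5AP (238 and 194 bases upstream) and TBXAS1 (230 and 151 bases), and are present in 2.17% of entries. TATAAA, present in 6.8% of entries, lay 32 bases before the start of PTGS2, 28 before that of HPGDS (past the printed part) and 140 before that of TBXAS1. The other PTGS1 start, which begins further downstream, had none of the 3, nor had LTA4H, LTC4S and PTGES. Of the other letters searched on both strands, the GC box GGGCGG (in 42.6% of entries) occurred in ALOX12, both PTGS1 entries, LTC4S and PTGES, the RUNX letters TGTGGT (11.0%) in LTC4S alone, and the AP-1 letters TGACTCA (4.2%) in none of the 9 genes. These matches describe the letters alone, and no binding was measured.

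Of the leukotriene genes, ALOX5 rose at every step. ALOX5 (ENSG00000012779, chromosome 10 from 45374176 to 45446119 in GRCh38) stood at 1.46, 1.88 and 2.30 CPM in the day 10 libraries and at 39.8, 39.2 and 36.05 CPM at day 15. It reached 79.6, 82.3 and 82.0 CPM at day 20 and 127 CPM in each library at day 25. No libraries of different days overlapped, so the days ordered as 10, 15, 20 and 25. The largest step was the first, 20.4-fold (log2 fold change 4.35, SE 0.093, adjusted p = 1.6e-35), followed by 2.12-fold (8.5e-21) and 1.56-fold (4.6e-14). Over the whole course ALOX5 rose 67.7-fold.

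ALOX5AP, whose product presents arachidonic acid to 5-lipoxygenase at the nuclear membrane, rose with ALOX5 to day 20 and then levelled. ALOX5AP (ENSG00000132965, chromosome 13 from 30713478 to 30764426) measured 4.35, 4.09 and 4.39 CPM on day 10, 31.1, 33.6 and 32.2 on day 15, 113, 116 and 109 on day 20, and 103, 102 and 102 on day 25. It rose 7.56-fold to day 15 (log2 fold change 2.92, SE 0.076, adjusted p = 2.6e-32) and 3.49-fold to day 20 (5.7e-30). The libraries of days 20 and 25 lay next to each other without overlap. The fall between them, 1.10-fold, passed narrowly (adjusted p = 0.019). Its call was lost with DESeq2's size factors in edgeR (-0.11 on the log2 scale, adjusted p = 0.068), with DESeq2 (0.056), at a threshold of 0.01, and without either of day 20 replicates 1 (0.059) and 2 (0.10) or day 25 replicates 1 (0.054) and 2 (0.063).

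LTA4H, the hydrolase that makes leukotriene B4, was the gene of the 10 that dipped at day 15. LTA4H (ENSG00000111144, chromosome 12 from 96000828 to 96043520) had 41.8, 44.4 and 41.7 CPM at day 10 and 34.8, 40.1 and 36.2 CPM at day 15. It then climbed to 138, 131 and 129 CPM at day 20 and 256, 257 and 254 CPM at day 25. The dip was small but clear of overlap, 1.15-fold (log2 fold change -0.21, SE 0.053, adjusted p = 0.00059), and was -0.74 with library-size scaling. The later rises were 3.58-fold (8.9e-32) and 1.93-fold (1.5e-22). A pair of antisense genes overlaps its exons, each with at most 15 counts over the 3 libraries of a day, where LTA4H had 2555 or more.

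LTC4S, which joins leukotriene A4 to glutathione and opens the cysteinyl leukotriene branch, rose to day 20 and then fell to near its day 15 level. LTC4S (ENSG00000213316, chromosome 5 from 179793980 to 179796647) measured 7.97, 7.40 and 8.10 CPM on day 10, 19.7, 17.8 and 21.1 on day 15, 30.6, 31.2 and 29.6 on day 20, and 19.2, 19.0 and 19.2 on day 25. It rose 2.50-fold (adjusted p = 5e-16) and 1.56-fold (1.9e-08), then fell 1.59-fold (9.4e-09). Days 15 and 25 overlapped and were not called apart (log2 fold change -0.03, SE 0.090, adjusted p = 0.78). That difference changed sign under 3 settings: it was 0.43 with library-size scaling (adjusted p = 4.1e-05), 0.18 without the filter (0.10) and 0.04 without day 15 replicate 3 (0.75).

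The cyclooxygenase genes parted. PTGS1, the constitutive form that platelets use, peaked at day 15 and was lowest at day 25. PTGS1 (ENSG00000095303, chromosome 9 from 122370530 to 122395703) measured 555, 581 and 575 CPM at day 10 and 2094, 2079.6 and 2114 CPM at day 15. It dropped to 191, 194 and 189 CPM at day 20 and 160.5, 159 and 159.5 CPM at day 25. After a 3.67-fold rise (log2 fold change 1.88, SE 0.030, adjusted p = 1.9e-40) came a 10.95-fold fall (2.5e-49) and a further 1.20-fold fall (8.9e-10). The days did not overlap, although days 20 and 25 lay close.

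PTGS2, the inducible cyclooxygenase of inflammation, went the other way. PTGS2 (ENSG00000073756, chromosome 1 from 186671791 to 186680427) stood at 3.94, 3.34 and 3.58 CPM at day 10 and 8.02, 8.70 and 7.76 CPM at day 15. It reached 47.1, 43.2 and 44.3 CPM at day 20 and 108, 105 and 98.5 CPM at day 25. Each step was a rise without overlap, 2.26-fold (adjusted p = 3.8e-13), 5.51-fold (log2 fold change 2.46, SE 0.080, 7.7e-29) and 2.31-fold (7.4e-21).

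In counts, PTGS1 exceeded PTGS2 157-fold at day 10, 257-fold at day 15, 4.26-fold at day 20 and 1.54-fold at day 25. On the log2 scale this ratio was 7.30 ± 0.154, 8.00 ± 0.0968, 2.09 ± 0.0751 and 0.62 ± 0.0636 (SD, n = 3 libraries). The days differed in an exact permutation test of F that ran through all 15400 partitions of the libraries (one-sided on F, p = 6.5e-05, the smallest these partitions can give, and 9.7e-05 adjusted over 3 ratios). Such a ratio is taken within a library and does not depend on how libraries are scaled, but it carries the lengths of both genes, so its change between days is what it shows. The ratio of counts narrowed at each step after day 15, and PTGS1 had more counts in each of the 12 libraries.

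The ratio of LTC4S to LTA4H, the competing users of leukotriene A4, also changed by day. LTA4H exceeded LTC4S in counts 5.44-fold at day 10, 1.90-fold at day 15, 4.35-fold at day 20 and 13.3-fold at day 25 (exact permutation test, p = 6.5e-05, adjusted 9.7e-05). The log2 ratio of ALOX5AP to ALOX5 was 1.20 ± 0.326 at day 10, -0.25 ± 0.101 at day 15, 0.47 ± 0.0508 at day 20 and -0.31 ± 0.0105 at day 25 (SD, n = 3; exact permutation test, p = 0.00026, adjusted 0.00026). Days 15 and 25 overlapped in this last ratio, and day 10 rested on 46 to 75 counts of ALOX5 per library.

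**Figure D2:**
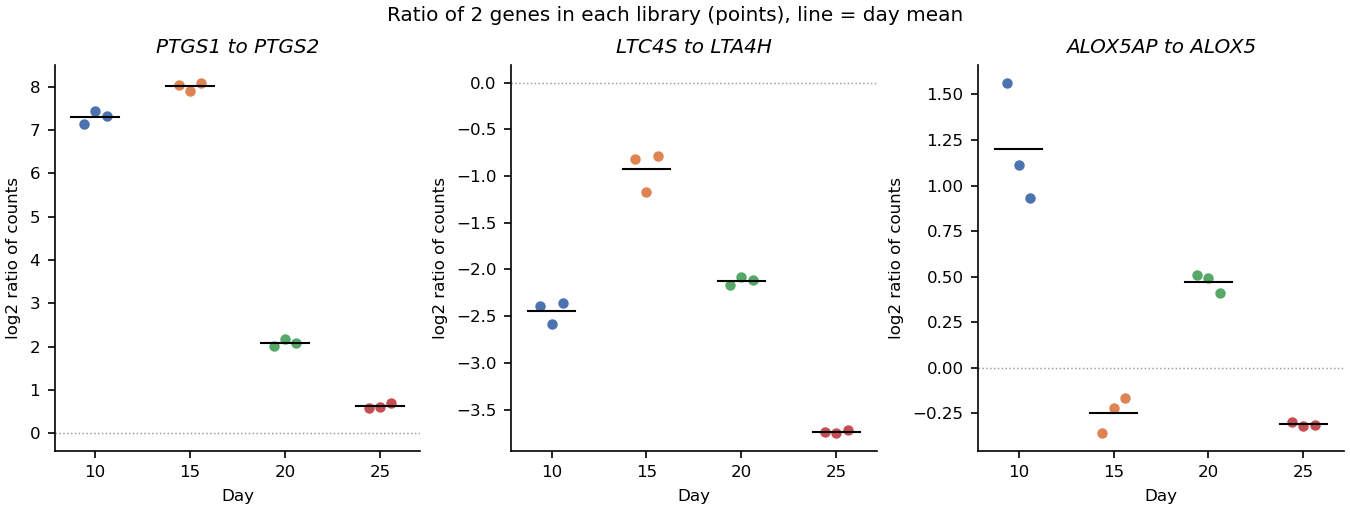
Log2 ratio of the counts of 2 genes (vertical axes, scaled per panel) in each library by day; points are libraries, black lines day means, the dotted line equal counts. PTGS1 to PTGS2 dropped from a mean of 8.00 at day 15 to 0.62 at day 25.

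TBXAS1, thromboxane synthase, followed PTGS1 to day 20 and then rose again. TBXAS1 (ENSG00000059377, chromosome 7 from 139777051 to 140020325) measured 179, 177 and 185 CPM on day 10, 457, 453 and 466 on day 15, 67.8, 57.3 and 67.9 on day 20, and 122, 115 and 115 on day 25. It rose 2.54-fold (adjusted p = 2.5e-28), fell 7.13-fold (log2 fold change -2.83, SE 0.046, 5.2e-39) and rose 1.82-fold (9.1e-20). The order of days was 20, 25, 10 and 15, without overlap. Its model overlaps that of HIPK2 on the opposite strand without shared exons. HIPK2 stood at 1380, 1390, 156 and 194 CPM on the 4 days, also lower at day 20 than at day 15, and its part in the TBXAS1 counts was not tested.

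ALOX12, the platelet 12-lipoxygenase, showed the steepest fall of the 10 genes. ALOX12 (ENSG00000108839, chromosome 17 from 6996065 to 7010736) had 88.8, 88.5 and 86.6 CPM at day 10 and 263, 254 and 269.7 CPM at day 15. It had 16.8, 14.7 and 14.9 CPM at day 20 and 6.84, 6.15 and 6.18 CPM at day 25. It rose 2.98-fold (adjusted p = 2.7e-30), then fell 16.9-fold (log2 fold change -4.08, SE 0.055, 3.2e-43) and 2.43-fold more (5.3e-19). The antisense gene ALOX12-AS1 overlaps its exons and stood at 6.43, 13.0, 7.29 and 5.25 CPM on the 4 days. Whether counting used strand is not given in the sources used here, so the low late level of ALOX12 is uncertain against that gene.

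HPGDS, the haematopoietic prostaglandin D synthase of mast cells, antigen-presenting cells and some T helper cells, rose furthest. HPGDS (ENSG00000163106, chromosome 4 from 94298535 to 94342876) was barely detected at day 10, with 2, 9 and 8 counts (0.0635, 0.226 and 0.270 CPM). It had 4.60, 4.59 and 3.74 CPM at day 15, 17.8, 19.0 and 15.7 at day 20, and 26.98, 32.5 and 28.1 at day 25. The steps were 22.4-fold (log2 fold change 4.48, SE 0.27, adjusted p = 3e-19), 4.07-fold (2e-17) and 1.67-fold (2.7e-07), and no days overlapped. The whole rise was 152-fold, its size resting on the 19 counts of day 10.

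PTGES, the inducible microsomal prostaglandin E synthase, was scarce throughout, with the lowest level per kilobase of the 10 genes from day 15 on. PTGES (ENSG00000148344, chromosome 9 from 129738331 to 129753047) had 0.191, 0.402 and 0.810 CPM on day 10, 2.45, 1.60 and 2.21 on day 15, 3.44, 4.33 and 3.795 on day 20, and 3.44, 3.81 and 3.46 on day 25. It rose 4.53-fold (adjusted p = 2.9e-07) and 1.84-fold (0.0042). Days 20 and 25 overlapped and were not called apart (log2 fold change -0.11, SE 0.26, adjusted p = 0.76). Day 25 was 1.71-fold above day 15 (adjusted p = 0.011). Leaving out day 15 replicate 2 ended this call (0.62 on the log2 scale, adjusted p = 0.059).

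**Figure D3:**
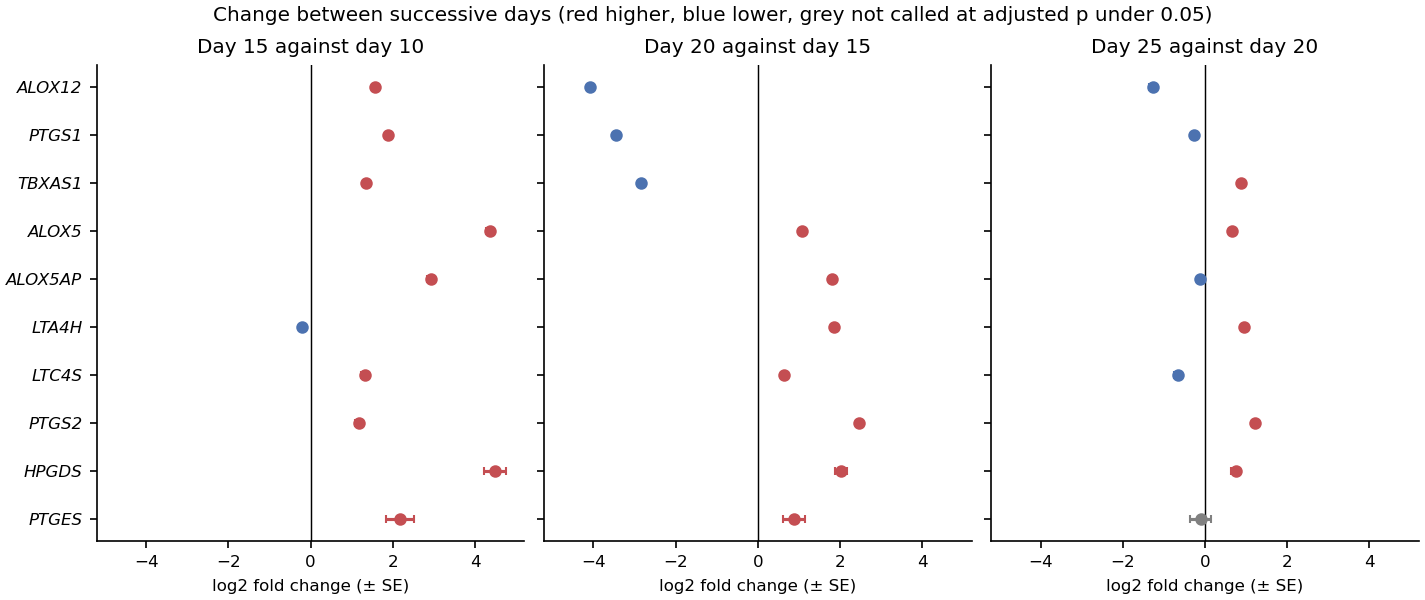
Log2 fold change ± SE (horizontal axes) of each gene (rows) between successive days in the fit to 12 libraries; red is called higher, blue called lower, grey not called. Between days 15 and 20 ALOX12, PTGS1 and TBXAS1 lie at -4.08, -3.45 and -2.83, and the other 7 genes lie above 0.

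Compared per kilobase of exon, PTGS1 led at day 10 with 98.5 CPM per kb and at day 15 with 362, followed at day 15 by ALOX12 (100.2) and TBXAS1 (73.9). At day 20 ALOX5AP led with 65.7 CPM per kb, ahead of PTGS1 (33.1) and LTC4S (25.6). At day 25 the levels were 59.8 for ALOX5AP, 34.8 for LTA4H, 34.1 for ALOX5, 27.6 for PTGS1 and 19.7 for PTGS2. These lengths join all exons of a gene in GENCODE 29, which is long for LTA4H (7350 bases), TBXAS1 (6200) and PTGS1 (5791). By the median coding transcript instead (2025, 2057 and 2321.5 bases), LTA4H led at day 25 with 126 CPM per kb and ALOX5AP followed with 96.4. Lower places also changed by that length. At day 15 TBXAS1 (223) stood above ALOX12 (111), and at day 20 LTA4H (65.4) above LTC4S (61.4). At day 25 PTGS1 (68.8) and TBXAS1 (56.9) stood above ALOX5 (53.2). PTGS1 led at days 10 and 15 and ALOX5AP at day 20 by either length.

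Marker genes of other blood cells moved over the same days. The 10 megakaryocyte and platelet markers summed to between 4938 and 5276 CPM on day 10, 23430 and 24390 on day 15, 393 and 402 on day 20, and 82.9 and 90.1 on day 25. All 10 were called higher at day 15, lower at day 20 and lower again at day 25. From day 15 to day 20 their summed level fell 59.9-fold by day means, while ALOX12 fell 16.9-fold, PTGS1 11.0-fold and TBXAS1 7.12-fold. At day 25 the markers stood at 0.361% of their day 15 sum, ALOX12 at 2.44% of its own day 15 level, PTGS1 at 7.62% and TBXAS1 at 25.5%. Other lists were also highest in sum at day 15. The 6 endothelial markers summed to between 1268 and 1314 CPM on day 10, 3710 and 3789 on day 15, 382 and 387 on day 20, and 258 and 268 on day 25. Of these, 4 were higher and 2 lower at day 15 than at day 10, and all 6 were lower at day 20 than at day 15. KDR went from 152.9 to 1954 CPM at day 15, while CDH5 fell from 38.8 to 7.23 CPM and TEK from 44.5 to 18.4 CPM. The 8 erythroid markers summed to between 458 and 489, 681 and 699, 21.1 and 27.5, and 1.54 and 2.24 CPM on these days, with 4 higher and 4 lower at day 15 and all 8 lower at day 20. The sum of the 8 eosinophil markers, given below, was also highest at day 15, where all 8 were called higher than at day 10. The part of platelet-lineage, endothelial, erythroid or eosinophil cells in the levels of ALOX12, PTGS1 and TBXAS1 was not tested.

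The 10 monocyte and macrophage markers summed to between 99.8 and 109 CPM on day 10, 587 and 644 on day 15, 2406 and 2480 on day 20, and 4857 and 5003 on day 25. All 10 were called higher at days 15 and 20, and 9 higher with 1 lower at day 25. At day 10 MSR1 had 0 counts. The 8 mast cell and basophil markers went in sum from 88.8 to 97.9 CPM per library at day 10 to values of 609 to 646 at day 25, with CMA1 under 1 CPM on every day. Of the 7 tested, 5 were higher and 1 lower at day 15, 7 higher at day 20, and 4 higher and 1 lower at day 25 against day 20. HDC went from 166.7 CPM at day 20 to 87.8 at day 25. KIT went from 52.0 CPM at day 10 to 20.2 at day 15 and then to 236 at day 25. The summed level of 8 eosinophil markers was highest at day 15, at 9499 to 10050 CPM, and was at 920 to 947 at day 25, but only 4 of the 8 were lower at day 20 than at day 15 and the other 4 were higher. The sum of 8 neutrophil markers was highest at day 20, at 17750 to 18060 CPM, and was at 7632 to 7791 at day 25, with 5 lower and 3 higher at day 25 than at day 20. The sums of the stromal (6900 to 7014 CPM), epithelial (1189 to 1251 CPM) and T-cell markers were also highest at day 20, the day on which LTC4S, ALOX5AP and PTGES were highest. The macrophage and mast cell sums were highest at day 25, as were ALOX5, LTA4H, PTGS2 and HPGDS. Which cells carried these transcripts was not tested.

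**Figure D4:**
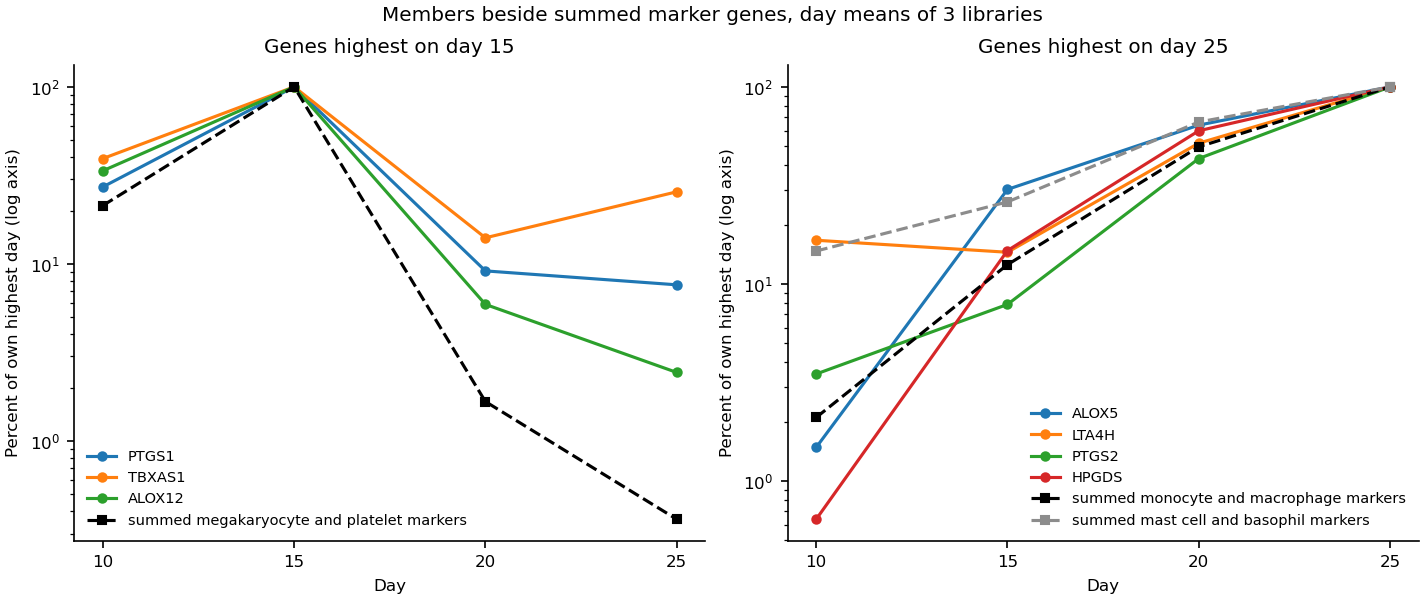
Day means of 3 libraries as a percent of each item's own highest day (vertical log axes) by day; solid lines are genes, dashed lines summed marker genes. From day 15 to day 25 the platelet markers fell to 0.361%, below ALOX12 (2.44%), PTGS1 (7.62%) and TBXAS1 (25.5%).

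The other genes of the pathway were followed in 6 lists of 61 genes, of which 54 passed the filter. At day 15, 34 of the 54 were called higher and 11 lower, at day 20, 32 and 17, and at day 25 against day 20, 19 and 16. Over all genes tested the shares called higher and lower were 42.4% and 30.8%, 40.6% and 36%, and 24.5% and 25.1%. The median log2 fold changes of the 54 genes were 1.12, 0.62 and 0.08, beside 0.20, 0.10 and -0.03 over all genes.

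Among 15 genes of arachidonate release and handling, 13 were tested, and at day 15 8 were higher and 3 lower. The phospholipase genes PLA2G4C (0.641 ± 0.182 to 45.9 ± 2.78 CPM) and PLA2G12A (26.7 ± 2.24 to 184.7 ± 3.36 CPM) rose at day 15. At day 20 they fell 8.90-fold (adjusted p = 1.41e-24) and 11.8-fold (7.66e-39), as PTGS1 also fell. PLA2G7, whose product breaks down platelet-activating factor, went from 0.237 ± 0.159 CPM at day 10 to 18.1 ± 2.36, 173 ± 8.85 and 426 ± 12.3 CPM. MGLL, a lipase that frees arachidonic acid from an endocannabinoid, measured 4.01 ± 0.204, 82.0 ± 4.40, 23.4 ± 0.857 and 140.7 ± 7.04 CPM and rose 6.01-fold at the last step (1.16e-33).

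Of the other lipoxygenase genes only ALOX15, the 15-lipoxygenase of eosinophils and some macrophages, passed the filter, and ALOX15B, ALOX12B and ALOXE3 did not. ALOX15 rose 49.4-fold at day 15 to 199.5 ± 1.28 CPM, fell 1.29-fold to 155 ± 7.49 at day 20 and 3.04-fold to 51.0 ± 3.83 at day 25 (adjusted p = 3.68e-27). The 8 other leukotriene enzymes were tested in full, with 4 higher and 2 lower at day 15 and 7 higher at day 20. DPEP2, which trims leukotriene D4, rose at each step from 1.81 ± 0.190 to 50.5 ± 1.85 CPM. GGT5, which acts just before it, peaked at day 20 (13.4 ± 1.94 CPM) and fell 3.31-fold (2.56e-11). MGST1 fell 4.70-fold at day 15 to 5.87 ± 0.154 CPM and regained 32.1 ± 1.05 at day 20, and MGST3 rose 2.03-fold at day 25 to 61.6 ± 1.36 CPM.

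Of the 8 other prostaglandin synthases, 4 were higher and 3 lower at day 15 and 3 and 4 at day 20, near the shares over all genes. PTGIS, prostacyclin synthase, measured 2.93 ± 0.673, 1.97 ± 0.179, 153 ± 3.11 and 79.7 ± 1.15 CPM and rose 77.7-fold at day 20 (adjusted p = 9.73e-42). The sum of the 8 stromal markers was also highest at day 20, at 6900 to 7014 CPM, of which COL3A1 had a mean of 4100. At day 15 that sum was 1544 to 1617 CPM, so it rose far less than PTGIS. At day 20 against day 15, 6 of the 8 were higher and 1 lower. COL1A1 was highest at day 25 (1278 CPM) and ACTA2 at day 15 (12.3 CPM). The epithelial, neutrophil and T-cell marker sums were highest at day 20 as well. The part of stromal or other cells in the rise of PTGIS was not tested. PTGES2 rose 1.84-fold at day 15 to 87.4 ± 5.28 CPM, fell 2.05-fold at day 20 and was not called at day 25 (0.315). PRXL2B peaked at day 15 (80.7 ± 8.03 CPM). AKR1B1 fell 3.41-fold at day 15 and rose 2.23-fold at day 20.

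Of 9 genes tested that clear or carry eicosanoids, 5 were higher and 2 lower at day 15 and 4 and 3 at day 20, again near the shares over all genes. HPGD, which inactivates prostaglandins, rose from 1.22 ± 0.517 to 9.39 ± 0.122, 39.9 ± 1.04 and 46.9 ± 3.45 CPM over the 4 days. PTGR1, which inactivates leukotriene B4 and prostaglandins, fell 6.79-fold at day 15 to 3.94 ± 0.461 CPM and was at 27.03 ± 0.332 at day 25, near its day 10 level of 26.9 ± 0.748. ABCC4, an exporter of prostaglandins, fell 8.66-fold at day 20 to 110.7 ± 0.911 CPM (adjusted p = 1.79e-46). EPHX2, an epoxide hydrolase, was not called at day 15 (0.932) and then fell 3.02-fold and 2.08-fold.

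Of 15 receptor genes tested, 12 were higher and 1 lower at day 15, and 10 higher and 4 lower at day 20. At day 25 against day 20, 2 were higher and 8 lower. PTGIR, the prostacyclin receptor of platelets, rose 14.8-fold to 677 ± 19.9 CPM at day 15 and fell 44.9-fold (adjusted p = 9.36e-44). PTGDR, a receptor for the product of HPGDS, had 4 counts over the day 10 libraries, 17.1 ± 2.69 CPM at day 15 and 0.615 ± 0.165 CPM at day 20. PTGER2, a prostaglandin E2 receptor, rose from 0.732 ± 0.0577 to 33.3 ± 2.25 CPM at day 20. FPR2, a receptor of lipoxins and formyl peptides, measured 0.391 ± 0.0770, 17.4 ± 1.90, 22.9 ± 1.35 and 16.5 ± 1.02 CPM.

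A further 4 receptors of the products of these enzymes are given although they fell outside the naming rule, and were chosen after their values were seen. TBXA2R, the thromboxane receptor, stood at 95.3 ± 2.57 and 175 ± 8.99 CPM at days 10 and 15 and fell 32.2-fold to 5.43 ± 0.846 CPM at day 20 (adjusted p = 7.44e-34). LTB4R, the main leukotriene B4 receptor, rose at each step, from 16.3 ± 0.968 to 30.5 ± 1.14, 56.4 ± 1.26 and 76.3 ± 2.90 CPM. CYSLTR1, a receptor of cysteinyl leukotrienes, peaked at day 20 (20.6 ± 1.17 CPM) and fell 1.32-fold (0.00527). PTGDR2, the prostaglandin D2 receptor of eosinophils and basophils, also peaked at day 20 (31.3 ± 2.59 CPM) and fell 1.87-fold (3.66e-11).

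**Figure D5:**
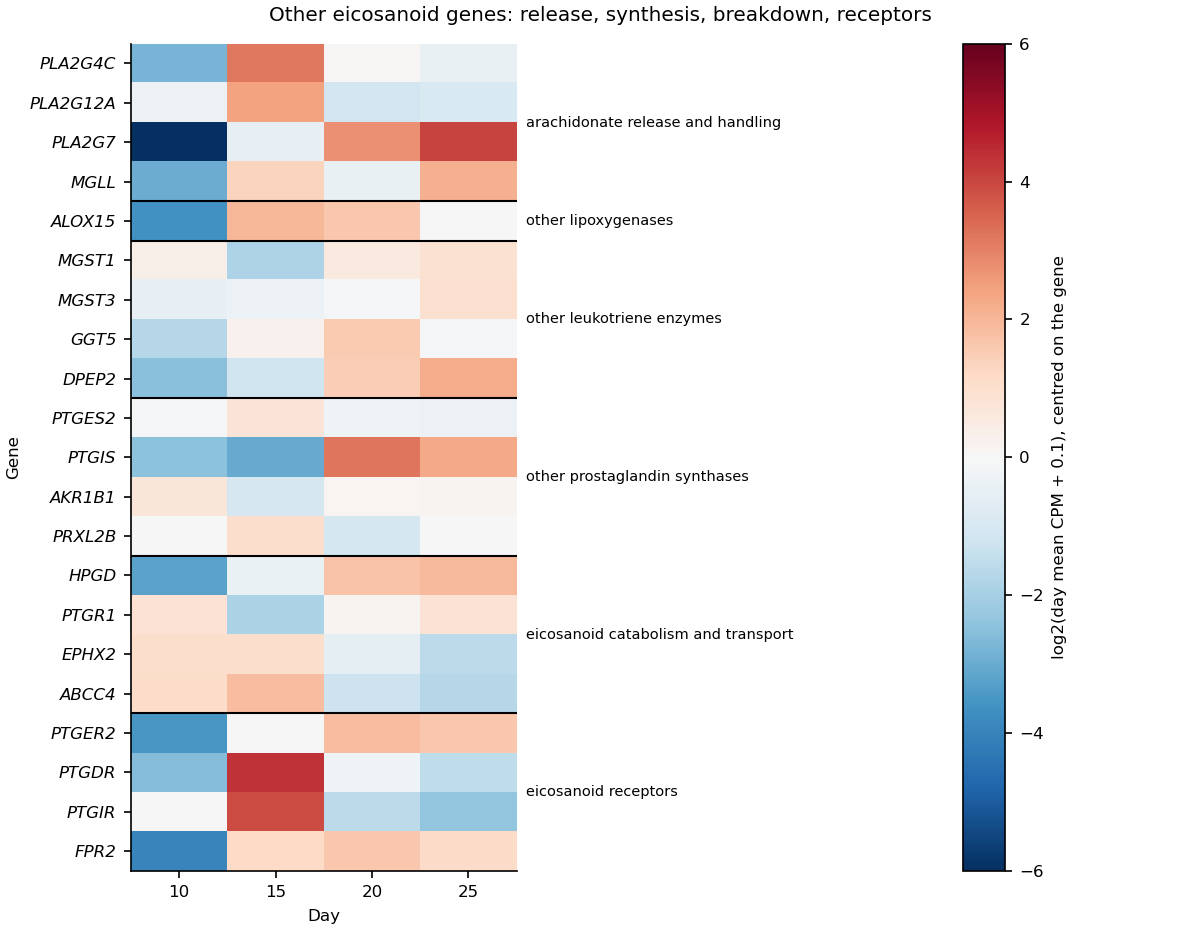
Day means of 21 other pathway genes (rows, grouped by list) on the scale log2(CPM + 0.1), centred on each gene's mean over the 4 days (colour bar). PTGIR, PTGDR, PLA2G4C and PLA2G12A are highest at day 15, PTGIS at day 20 and PLA2G7 and DPEP2 at day 25.

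For each of the 10 genes, the 3 coding genes of most like course were found among 11293 with at least 10 CPM on their highest day, by the root mean square difference of mean-centred log2 CPM over the 12 libraries. SIAH2 (difference 0.065), TNIK (0.0915) and GTF3C5 (0.099) were nearest to PTGS1, ICAM2 (0.146), LAT (0.148) and NT5M (0.194) to ALOX12, and KIFC3 (0.13), CPEB2 (0.15) and CORO1C (0.155) to TBXAS1. CEACAM1 (0.237), NLRC4 (0.252) and C19orf38 (0.26) were nearest to ALOX5, and TASL (0.171), PLB1 (0.207) and IL4I1 (0.215) to ALOX5AP. TBC1D2B (0.106), COLGALT1 (0.134) and PPT1 (0.138) were nearest to LTA4H, and PIM1 (0.109), ENTPD7 (0.141) and HDC (0.144), the histamine-forming enzyme, to LTC4S. KIAA0930 (0.129), SCARB2 (0.134) and TMEM51 (0.172) were nearest to PTGS2, and CLEC7A (0.212), CCR1 (0.231) and SIRPB1 (0.24) to HPGDS. PTGES had no gene within 0.25, its nearest being SYNE3 (0.359), PYGL (0.368) and WWC1 (0.377). Among the 10 genes themselves the closest pairs were ALOX5 with HPGDS (0.509), ALOX5 with ALOX5AP (0.622) and PTGS1 with TBXAS1 (0.639). With 4 days of 3 libraries each, many genes share a course: 45 lay within 0.25 of PTGS1 and 56 within 0.25 of LTA4H.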

How the data were processed

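RNA from H9 cells under differentiation was sequenced as single reads after ligation-mediated library preparation, per the labels' protocols. The authors deposited raw read counts per gene and library (the file headers name sorted BAM files). GRCh38 is the build in the submitters' processing notes, while aligner, counter, annotation and strand setting were not given in the sources used here. Of 36601 gene IDs, 36366 had a symbol. Groups were the labelled days, with all 12 libraries used.

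The counts were fitted with edgeR 4.0.16 in R 4.3.3 (filterByExpr, minimum count 10, 20183 genes kept, TMM factors from 0.753 to 1.172, glmQLFit robust, glmQLFTest, 6 pairs of days and a joint F test), with Benjamini-Hochberg adjustment. SE is the log2 fold change over the root of F. Replicates of a day differed by more than sampling noise (chi-square per degree of freedom 3.49 to 5.16). Other scalings, filters, tests, designs and left-out libraries were tried as alternatives. Ratios used counts plus 0.5. Figures used matplotlib 3.10.9 in Python 3.11.15, lengths and coordinates GENCODE 29, and promoters RefSeq. In simulated data, 67 genes were changed 1.5-fold, 67 2-fold and 65 4-fold, in both directions, at day 15 against day 10. Every gene had a fixed dispersion of 0.0036. Of these changes 79.1%, 89.6% and 98.5% were recovered over 17732 genes fitted, and 5.85% of 188 calls were false. Far fewer genes were changed there than were called in the data at that step, so these rates may not hold for the data.

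The 10 genes, the 6 pathway and 10 marker lists and the motifs were chosen with earlier results of these data known. The naming rule took the 10 genes, up to 4 genes per pathway list with at least 10 CPM on their highest day, a joint adjusted p under 0.05 and the widest range of day means, and the 3 genes of most like course for each of the 10. In every library more genes held 2 counts than 1, and whether a count equals a single read was not tested.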

Additional observations from a re-analysis of the deposited data

How the results depend on the processing

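The counts of called genes among the 10, in 6 comparisons and each direction, were recomputed under DESeq2 size factors, library-size scaling, no filter, a stricter filter, DESeq2 1.42.0, limma-voom (limma 3.58.1), a replicate block, fits to the compared days alone, removal of 130 mitochondrial, ribosomal protein and haemoglobin genes, an adjusted p under 0.01 and each library left out. Of 264 such counts 254 equalled the reported ones and the others differed by 1. Of 1320 fold changes 1308 kept direction and side of the threshold, 9 lost the call and 3 turned. The lost calls were the fall of ALOX5AP at day 25 against day 20 and the rise of PTGES at day 25 against day 15. Over all settings, with calls kept or lost, their log2 fold changes ran from -0.30 to -0.11 and from 0.62 to 1.23. The ends -0.30 and 1.23 came with library-size scaling, under which both calls were kept. The turned values were those of LTC4S at day 25 against day 15, 0.428 with library-size scaling, 0.183 without the filter and 0.037 without day 15 replicate 3 (from -0.085 to 0.037 over the libraries left out in turn); the cause was not tested. Library-size scaling moved the median gene by -0.53 at day 15 against day 10, 0.61 at day 20 against day 15, -0.16 at day 25 against day 20 and 0.45 at day 25 against day 15. Log2 fold changes at day 20 against day 15 moved with it, to 2.46 for LTA4H, 1.26 for LTC4S and -2.83 for PTGS1. Same-numbered libraries did not deviate together (r from -0.016 to 0.016 over 18 pairs). Paired cultures with little shared deviation would give the same values, so whether the numbers pair samples is not known. The replicate block gave 9760 calls at day 25 against day 20 beside 10023 and changed no call among the 10. The ratio tests stayed past the threshold with 5 counts added and with any library left out. Low counts limit HPGDS and PTGES at day 10, with 19 and 46 summed counts.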
